A study of Mus musculus with 11 samples.

Results

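The genes described here encode the vacuolar proton pump, with its accessory proteins, and the cathepsins. With earlier results of these data known, they were chosen by a rule on symbols: every gene of the table whose symbol starts with Atp6v or Atp6ap, or is Cts followed by 1 letter. This gave 32 of the 15274 genes measured, 19 of the pump (9 of its V1 sector, 8 of its V0 sector and 2 accessory proteins) and 13 cathepsins. RNA sequencing libraries of heart tissue came from 6 mice of 8 weeks, 3 of the strain C57BL/6J (B6) and 3 of C3H/HeJ (C3H), sampled at day 7 per the titles. There were 4 groups: uninjured regions of B6 hearts (n = 3), injured regions of B6 hearts (n = 3), uninjured regions of C3H hearts (n = 3) and injured regions of C3H hearts (n = 2). Every injured region has an uninjured region of the same heart beside it, and 1 C3H heart has the uninjured region only. No transgene, deletion or drug is named for any group, and how the hearts were injured is not stated in the labels.

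The vacuolar ATPase is a rotary pump that acidifies lysosomes, endosomes and secretory vesicles. Its V1 sector, in the cytosol, hydrolyses ATP, and its V0 sector, in the membrane, passes protons. Several subunits exist as a broadly used form and a form restricted to certain cells: osteoclasts and macrophages use the d2 subunit (Atp6v0d2) and the a3 subunit (Tcirg1), and osteoclasts place the pump in the plasma membrane to acidify the space over bone. Cathepsins are the proteases of the acid compartment. Cathepsins B, D, L, A and Z are found in most cells, whereas cathepsin K (Ctsk) is the collagen-degrading enzyme of osteoclasts, cathepsin S (Ctss) belongs to antigen-presenting cells and macrophages, and cathepsin W (Ctsw) to cytotoxic lymphocytes.

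Between 9699985 reads (B6 uninjured library 2) and 22138459 reads (C3H uninjured library 3) were assigned to genes per library. Levels are normalised counts, that is, reads divided by the size factor of the library, and changes are log2 differences of group means of log2(normalised count + 1), with their standard error (SE). A gene was called when its limma p, adjusted by Benjamini-Hochberg over 14751 genes tested, was under 0.05. All 32 members were tested. The strains also differed in sex as read from the RNA: the 6 B6 libraries had Xist at 3.14 to 12.2 and 4 Y-linked genes summing to 2824 to 4633, and the 5 C3H libraries had Xist at 1840 to 8478 and the same Y-linked genes at 0.888 to 12.1. Strain and sex therefore cannot be told apart. In these pieces of tissue, a change in the number of cells of a type and a change in RNA per cell cannot be told apart either.

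In C3H hearts, the injured regions had 13 of the 32 members higher and 2 lower than the uninjured regions. Of all genes tested, 15.3% were called higher and 15.4% lower, 30.7% in all. The median change of the members was 0.89, beside 0.01 for all genes tested. The 13 cathepsins gave 9 of the increases and 1 of the decreases, with a median of 1.88. The 19 pump genes gave 4 increases and 1 decrease, with a median of 0.33. With library totals made equal, 19 members were called higher and none lower in place of 13 and 2, and the median of all genes tested was then 0.33.

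In B6 hearts, none of the 32 members was called after injury, and 0.0136% of all genes tested were. At an unadjusted p under 0.05 there were 3 members, beside 1979 of all genes, and edgeR also called 0 members. DESeq2 called 0 as well, but it gave many members no adjusted p, among them Atp6v0a4, Atp6v0d2 and Atp6v1a. It could therefore not have called these. Atp6v0a4, Atp6v0d2, Atp6v1a and Ctsa were higher in each injured B6 library than in every uninjured one, and Atp6v1b2 was lower. Such separation without overlap was seen for 9.83% (higher) and 7.69% (lower) of all genes tested. In C3H, 19 members were higher without overlap and 5 lower, beside 29.6% and 29.7% of all genes tested.

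**Figure D1:**
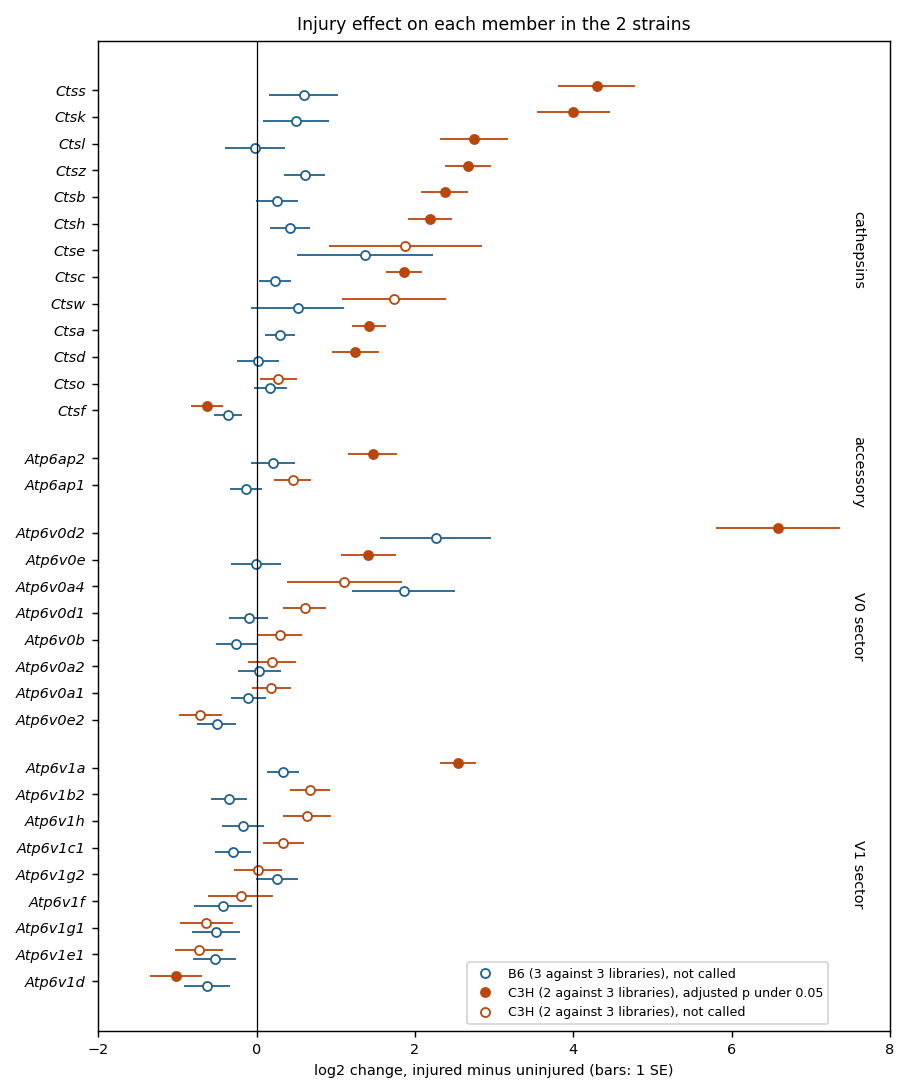
Log2 change from uninjured to injured regions (x axis, bars are 1 SE) for each of the 32 members, by sector of the pump and for the cathepsins, in B6 (3 against 3 libraries) and C3H (2 against 3 libraries). Filled points have an adjusted p under 0.05: 15 in C3H, from -1.02 for Atp6v1d to 6.58 for Atp6v0d2, and 0 in B6.

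Among the 9 V1 subunits, Atp6v1a rose after injury in C3H, Atp6v1d fell, and the other 7 were not called. Atp6v1a encodes the A subunit, which binds and hydrolyses ATP. Its level was 725, 603 and 678 in the uninjured C3H libraries and 3020 and 5004 in the injured ones. Levels in B6 were 776, 786 and 813 in uninjured and 969, 1055 and 964 in injured regions. The groups did not overlap in either strain, and the C3H injured libraries stood above every other library. The change in C3H was 2.54 (SE 0.22, adjusted p = 3.04e-05), a 6.00-fold rise of the mean from 669 ± 61.5 (SD, n = 3) to 4012 ± 1403 (SD, n = 2).

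The B subunit Atp6v1b2, which binds ATP beside the A subunit, did not move as far. It was 2114, 2496 and 2650 in uninjured and 2877 and 5139 in injured C3H regions, a change of 0.67 (SE 0.25, adjusted p = 0.0610). Injured C3H library 2 was well above library 1. With the animal as a fixed block the adjusted p was 0.0277, with a random block 0.0162, with edgeR 0.0447 and with DESeq2 0.0259. Over the 22 alternatives it ran from 0.00814 to 0.564.

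Atp6v1d encodes the D subunit of the central shaft that couples the sectors. It fell in C3H from 1912, 3281 and 3118 to 1287 and 1370, by 1.02 on the log2 scale (SE 0.32, adjusted p = 0.0324). Its injured libraries lay below all 3 uninjured ones, of which library 1 was the lowest. The call was lost without uninjured C3H library 2 (adjusted p = 0.0899) or 3 (0.0979), and without injured C3H library 1 (0.142) or 2 (0.130). In B6, Atp6v1d was 2395, 3660 and 1790 in uninjured and 2096, 1487 and 1372 in injured regions, and these overlapped.

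Of the peripheral stalk subunits, Atp6v1e1 and Atp6v1g1 were lower in both injured C3H libraries, without a call, and Atp6v1c1 and Atp6v1g2 overlapped. Atp6v1e1 was 2318, 3172 and 3673 in uninjured and 1791 and 1816 in injured C3H regions (change -0.73, SE 0.30, adjusted p = 0.0856). It passed with a random animal block (adjusted p = 0.0450) and without uninjured C3H library 1 (0.0450), and not with a fixed block (0.0988). Over the 22 alternatives the adjusted p ran from 0.0450 to 0.248. Atp6v1g1, its partner in the stalk, was 1138, 1608 and 1672 against 828 and 1051, without overlap (change -0.64, SE 0.34, adjusted p = 0.170). Atp6v1g2, the form known from neurons, stayed between 48.4 and 53.7 in all 5 C3H libraries and between 55.4 and 87.7 in the B6 libraries. Atp6v1h, the regulatory subunit H, was 550, 939 and 899 in uninjured and 1074 and 1345 in injured C3H regions (adjusted p = 0.130). With the animal as a block Atp6v1h passed (0.0228 fixed, 0.0319 random). Atp6v1c1, another stalk subunit, ranged from 867 to 1863 over the 11 libraries, and Atp6v1f, of the shaft, from 528 to 1493, and both overlapped between uninjured and injured regions in each strain.

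The promoter of Atp6v1a holds an 8-base form of the E-box, TCACGTGA, which is the core of the CLEAR element bound by the lysosome regulators TFEB, TFE3 and MITF. RefSeq promoters (build GRCm38.p6, 250 bases before to 50 after the start) matched 22 of the 32 members, with 24 promoters. No promoter was matched for Atp6v0a2, Atp6v0d2, Atp6v1b2, Atp6v1c1, Atp6v1g1, Atp6v1h, Ctsb, Ctse, Ctsh or Ctsw, so these were not searched. The E-box CACGTG, which reads the same on both strands and is contained in TCACGTGA, stood in 8 of the 24 (33.3%), in 7.15% of all 32851 promoters and in 9.55% of the 14067 promoters of genes tested. TCACGTGA stood in 5 of the 24 (20.8%), in 0.974% of all and in 1.63% of those of genes tested. These matches describe the sequence only. The 250 bases before the start of Atp6v1a, at chr16:44139260-44139509 on the minus strand, are shown 5′ to 3′ with CACGTG in capitals, because it was the V1 gene with the largest change. The match begins 131 bases before the start.
Atp6v1a promoter: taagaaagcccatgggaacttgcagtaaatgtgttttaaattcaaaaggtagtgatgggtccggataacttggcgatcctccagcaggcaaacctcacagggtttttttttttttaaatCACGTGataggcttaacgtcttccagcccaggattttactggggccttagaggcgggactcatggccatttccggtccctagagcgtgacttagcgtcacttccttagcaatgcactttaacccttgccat

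In the V0 sector, Atp6v0d2 and Atp6v0e rose after injury in C3H, and 6 of 8 subunits were not called. Atp6v0d2 encodes the d2 form of the subunit that joins the sectors, which is needed for the fusion of osteoclast precursors. It was 8.91, 57.6 and 28.4 in uninjured C3H regions and 1644 and 3706 in injured ones. In B6 it was 8.28, 8.30 and 2.36 in uninjured and 53.0, 13.4 and 40.4 in injured regions. The groups did not overlap in either strain. The injured C3H libraries were far above the other 9 libraries, library 2 more so than library 1. The mean rose 84.6-fold in C3H, from 31.6 ± 24.5 (SD, n = 3) to 2675 ± 1458 (SD, n = 2), and the log2 change was 6.58 (SE 0.78, adjusted p = 0.000184).

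The broadly used form of the same subunit, Atp6v0d1, was 994, 1680 and 1535 in uninjured and 1798 and 2421 in injured C3H regions. These did not overlap, but the change of 0.61 (SE 0.27, adjusted p = 0.111) was not called. With the animal as a block it was (0.0213 fixed, 0.0249 random), and over the 22 alternatives the adjusted p ran from 0.0179 to 0.488. B6 levels were 1593, 1489 and 1165 in uninjured and 1544, 1351 and 1074 in injured regions.

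The small e subunit of the V0 sector has a broadly used form, Atp6v0e, and a second form known from the brain, Atp6v0e2. Atp6v0e was 860, 1260 and 1623 in uninjured and 2944 and 3512 in injured C3H regions. It rose by 1.41 (SE 0.35, adjusted p = 0.0107). Without injured C3H library 2 the adjusted p was 0.0927. In B6 it overlapped, at 2470, 2657 and 1461 in uninjured and 2695, 2460 and 1426 in injured regions. Atp6v0e2 went the other way in C3H, from 485, 642 and 675 to 349 and 375, without overlap (change -0.71, SE 0.27, adjusted p = 0.0657). It passed with a random animal block (0.0352), edgeR (0.0485), DESeq2 (0.0301) and without uninjured C3H library 1 (0.0450), and not with a fixed block (0.113). Over the 22 alternatives the adjusted p ran from 0.0301 to 0.234.

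The a subunit passes protons to and from the ring and directs the pump to its membrane. Of its forms in the rule, none was called. Atp6v0a1 was 2802, 2359 and 2420 in uninjured and 2591 and 3175 in injured C3H regions, and 1421 to 2233 and 1348 to 2001 in B6. Atp6v0a2, the form of the Golgi and endosomes, ranged from 868 to 1696 over all 11 libraries and overlapped in both strains. Atp6v0a4, known from acid-secreting cells of the kidney, was low everywhere. It was 4.73, 10.4 and 15.3 in uninjured and 32.6, 35.4 and 40.4 in injured B6 regions, without overlap (change 1.86, SE 0.65, adjusted p = 0.364), and 10.9, 2.09 and 6.22 against 25.1 and 6.36 in C3H. Atp6v0b, of the proteolipid ring, was 1959 to 3037 in uninjured and 2673 and 3530 in injured C3H regions, and 1841 to 3409 over the B6 libraries.

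The a3 form has the symbol Tcirg1 and so lies outside the rule, but it is the osteoclast partner of Atp6v0a1. Tcirg1 was 390, 439 and 326 in uninjured and 2387 and 4429 in injured C3H regions, and rose by 3.09 (SE 0.37, adjusted p = 0.000186). In B6 it was 782, 340 and 467 against 748, 1288 and 1075, which overlapped (change 1.02, SE 0.33, adjusted p = 0.364).

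The accessory proteins sit on the V0 sector. Atp6ap2, the prorenin receptor, rose in C3H from 609, 749 and 735 to 1606 and 2304, by 1.47 (SE 0.31, adjusted p = 0.00440). Without injured C3H library 2 its adjusted p was 0.0679. Its B6 levels were 989, 1107 and 528 in uninjured and 1137, 964 and 814 in injured regions. Atp6ap1, which takes part in the assembly of V0, was 3558, 3275 and 3927 against 4657 and 5149 in C3H, without overlap but not called (change 0.45, SE 0.23, adjusted p = 0.153).

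Of 13 genes of pump assembly and regulation that were tested, 2 rose and 1 fell in C3H, with a median of 0.22, beside 15.3% and 15.4% of all genes tested. Those that rose were Tcirg1 and Ncoa7, a TLDc protein that binds the pump (1.52, SE 0.34, adjusted p = 0.00651). Rogdi, a subunit of the RAVE-like complex that rejoins V1 and V0, fell by 0.94 (SE 0.30, adjusted p = 0.0321) and was named after its value was seen. The assembly factor Vma21 was not called (adjusted p = 0.543).

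**Figure D2:**
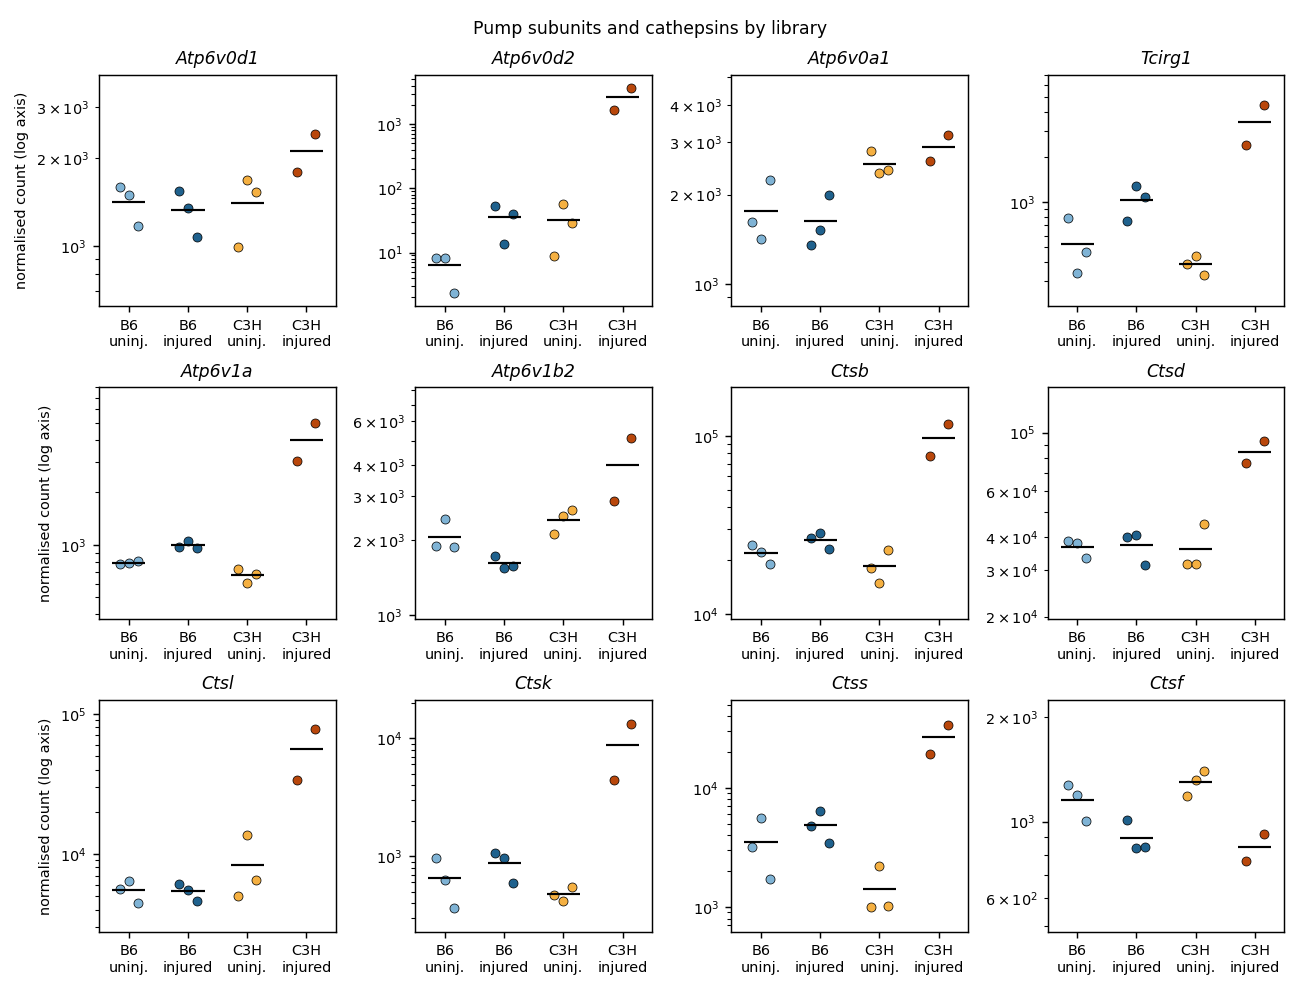
Normalised counts (log axis, a separate range in each panel) of 12 genes in the 11 libraries of the 4 groups. Each point is a library and each line a group mean. The injured C3H libraries stand above all others for Atp6v0d1, Atp6v0d2, Tcirg1, Atp6v1a, Atp6v1b2, Ctsb, Ctsd, Ctsl, Ctsk and Ctss. Of these, Atp6v0d1 and Atp6v1b2 were not called for injury in C3H.

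Of the 13 cathepsins, 9 were called higher in injured C3H regions (Ctss, Ctsk, Ctsl, Ctsz, Ctsb, Ctsh, Ctsc, Ctsa and Ctsd), Ctsf was called lower, and Ctse, Ctso and Ctsw were not called. For each of the 9, both injured C3H libraries were above all 3 uninjured ones, and injured library 2 was above injured library 1. None was called in B6.

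The restricted cathepsins S and K had the highest changes of the 13. Ctss was 993, 2203 and 1016 in uninjured and 19401 and 33950 in injured C3H regions, a change of 4.30 (SE 0.49, adjusted p = 0.000143). In B6 it was 3212, 5572 and 1713 in uninjured and 4795, 6410 and 3443 in injured regions, with overlap. Ctsk was 466, 421 and 546 in uninjured and 4439 and 13122 in injured C3H regions, a change of 4.00 (SE 0.46, adjusted p = 0.000149). In B6, Ctsk was 962, 624 and 368 against 1071, 969 and 598. The injured C3H libraries exceeded every other library for both genes. For Ctsk they also lay far apart, with a mean of 8780 ± 6140 (SD, n = 2).

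The broadly expressed endopeptidases rose as well. Ctsl, cathepsin L, was 4974, 13614 and 6515 in uninjured C3H regions and 33507 and 77981 in injured ones (change 2.75, SE 0.43, adjusted p = 0.000879). Uninjured C3H library 2 stood apart from its group for this gene. Ctsb, cathepsin B, was 18025, 14986 and 22924 against 77390 and 117658 (change 2.38, SE 0.30, adjusted p = 0.000240). Ctsd, the aspartic cathepsin D, was 31582, 31554 and 44837 against 76440 and 92766 (change 1.25, SE 0.30, adjusted p = 0.00845). The call of Ctsd was lost without injured C3H library 2 (adjusted p = 0.0872) and when the C3H groups were fitted alone (0.0534). In B6, Ctsb was 24236, 22318 and 19113 in uninjured and 26573, 28555 and 23137 in injured regions, Ctsd stayed between 31379 and 40821 and Ctsl between 4459 and 6452 over the 6 libraries.

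The exopeptidases, which trim single residues or dipeptides from protein ends, formed a further group. Ctsz, cathepsin Z, was 1358, 1160 and 1347 in uninjured and 7038 and 9511 in injured C3H regions (change 2.67, SE 0.29, adjusted p = 0.000103). Ctsh, cathepsin H, was 596, 561 and 389 against 2061 and 2616 (change 2.19, SE 0.28, adjusted p = 0.000272). In B6, Ctsz was 2314, 1634 and 1071 against 2657, 2496 and 2155, and Ctsh 1881, 1584 and 1254 against 2032, 2708 and 1632, with overlap in both. Ctsc, the dipeptidyl peptidase that activates granule proteases, was 996, 1087 and 780 against 3172 and 3717 (change 1.86, SE 0.23, adjusted p = 0.000212). Ctsa, the carboxypeptidase that also protects lysosomal galactosidase and sialidase, was 3693, 4269 and 4458 against 9130 and 13356 (change 1.42, SE 0.22, adjusted p = 0.000797). In B6, Ctsa was 3474, 3136 and 2988 in uninjured and 3865, 4148 and 3736 in injured regions, without overlap, but its change of 0.29 was not called (SE 0.19, adjusted p = 0.498).

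Ctsf, cathepsin F, fell in C3H from 1188, 1319 and 1401 to 769 and 921, by 0.63 on the log2 scale (SE 0.20, adjusted p = 0.0335). This call was lost in 7 of 22 alternatives: leaving out any of injured B6 library 2, uninjured C3H library 2 or 3, or injured C3H library 1 or 2 gave adjusted p from 0.0539 to 0.216, fitting the C3H groups alone gave 0.0610 and equal library totals gave 0.223. The B6 levels were 1273, 1197 and 1003 against 1008, 841 and 842. Ctsw was low, at 5.94, 2.09 and 13.3 in uninjured and 22.5 and 20.5 in injured C3H regions (change 1.73, SE 0.65, adjusted p = 0.0628), and passed with the animal as a block (0.0133 fixed, 0.0118 random). Ctse, an aspartic cathepsin of gut and immune cells, was at 0 to 24.0 over all libraries, and Ctso, a little-studied lysosomal protease, at 449 to 722. Neither was called.

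The promoters of these cathepsins differed in the E-box, where a promoter was matched. Atp6v0d2, Ctsb and Ctsh, which rose, had none to search. Ctsd, Ctsl, Ctsf and 1 of 2 Ctsa promoters held CACGTG, and of these Ctsd and Ctsa held TCACGTGA. No CACGTG was found in the 300 bases of the Ctsk, Ctss, Ctsz, Ctsc or Atp6ap2 promoters. Besides Atp6v1a, the pump genes with CACGTG were Atp6v0b, Atp6v0d1 and Atp6v0e, the last 2 with TCACGTGA, so that genes with and without a call both carried it. To show both kinds, the 250 bases before the start are given 5′ to 3′ with CACGTG in capitals for Ctsd (chr7:142387828-142388077, minus strand), Ctsa (chr2:164833523-164833772, plus strand), Ctsk (chr3:95498960-95499209, plus strand) and Ctss (chr3:95526536-95526785, plus strand), in GRCm38.p6. In Ctsd the matches begin 245 and 98 bases before the start, and in Ctsa 12 bases before it. The stretches of Ctsk and Ctss have none.
Ctsd promoter: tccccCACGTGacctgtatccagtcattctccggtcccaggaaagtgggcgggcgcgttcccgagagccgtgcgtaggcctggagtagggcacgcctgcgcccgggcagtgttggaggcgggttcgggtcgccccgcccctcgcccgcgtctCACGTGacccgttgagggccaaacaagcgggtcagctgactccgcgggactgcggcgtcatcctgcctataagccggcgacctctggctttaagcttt
Ctsa promoter: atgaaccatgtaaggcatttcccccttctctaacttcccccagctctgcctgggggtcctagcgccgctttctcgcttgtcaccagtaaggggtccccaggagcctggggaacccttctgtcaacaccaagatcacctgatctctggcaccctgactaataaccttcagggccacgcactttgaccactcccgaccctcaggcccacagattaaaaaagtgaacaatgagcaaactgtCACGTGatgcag
Ctsk promoter: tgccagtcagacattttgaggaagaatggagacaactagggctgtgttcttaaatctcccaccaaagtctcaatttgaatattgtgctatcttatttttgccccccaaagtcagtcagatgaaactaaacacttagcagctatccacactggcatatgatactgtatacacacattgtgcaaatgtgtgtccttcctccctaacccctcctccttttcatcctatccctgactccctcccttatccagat
Ctss promoter: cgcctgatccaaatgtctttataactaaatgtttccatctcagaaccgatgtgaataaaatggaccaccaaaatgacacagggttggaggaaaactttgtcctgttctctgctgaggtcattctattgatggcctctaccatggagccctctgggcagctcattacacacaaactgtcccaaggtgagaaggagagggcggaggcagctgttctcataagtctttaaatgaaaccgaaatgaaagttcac

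Restricted and broadly used forms were then compared within each library, as the log2 ratio of their normalised counts + 1. Ctsl and Atp6v0a2, which are not restricted forms, were compared with Ctsb and Atp6v0a1 in the same way. For genes of low level, such as Ctse, Atp6v0a4 and Atp6v0d2 outside injured C3H, the ratio depends on the added 1. Of 14 pairs listed, 10 had both genes tested. Injury labels were permuted within each strain (200 arrangements, two-sided, smallest exact p 0.005), with Benjamini-Hochberg adjustment over the 10 pairs. The ratio of Atp6v0d2 to Atp6v0d1 was -7.42, -7.32 and -8.44 in uninjured and -4.84, -6.56 and -4.70 in injured B6 regions. In C3H it was -6.65, -4.84 and -5.71 in uninjured and -0.13 and 0.61 in injured regions. The mean ratio was thus higher in injured regions by 2.37 in B6 and 5.98 in C3H, 4.17 on average (exact permutation p = 0.005, adjusted 0.025). For this and the other pairs the test is of that average, and neither strain was tested alone. The ratio was higher in the injured region of 5 of 5 animals.

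The osteoclast form of the a subunit rose against its broadly used form too. The ratio of Tcirg1 to Atp6v0a1 was -1.05, -2.06 and -2.26 in uninjured and -0.85, -0.24 and -0.90 in injured B6 regions, and -2.84, -2.42 and -2.89 against -0.12 and 0.48 in C3H. Its mean change was 2.01 (exact permutation p = 0.005, adjusted 0.025), with all 5 animals higher in the injured region. The ratio of Atp6v0e2 to Atp6v0e fell by 1.31 on average (exact permutation p = 0.01, adjusted 0.0333), by 0.50 in B6 and 2.13 in C3H, and was lower in the injured region of each of the 5 animals. When labels were swapped within animals, these 3 pairs had an exact p of 0.0625, the smallest that 32 arrangements allow. Atp6v0a4 to Atp6v0a1, Atp6v1g2 to Atp6v1g1, Ctsk to Ctsb and Ctse to Ctsd had the same value. Their ratios were higher in the injured region of 5 of 5 animals. The swap within animals therefore does not set the 3 pairs apart.

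The other pairs were not called. Ctsk to Ctsb (0.93), Atp6v0a4 to Atp6v0a1 (1.44) and Atp6v1g2 to Atp6v1g1 (0.71) each reached an adjusted exact permutation p of 0.05, at the threshold but not under it. Ctss to Ctsb changed by 1.13 (exact permutation p = 0.07, adjusted 0.10), by 0.34 in B6 and 1.92 in C3H. Ctse to Ctsd changed by 0.99 (exact permutation p = 0.135, adjusted 0.169). Ctsl to Ctsb and Atp6v0a2 to Atp6v0a1 had adjusted exact permutation p of 0.885 and 0.717, and their small mean changes took either sign when libraries were left out.

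**Figure D3:**
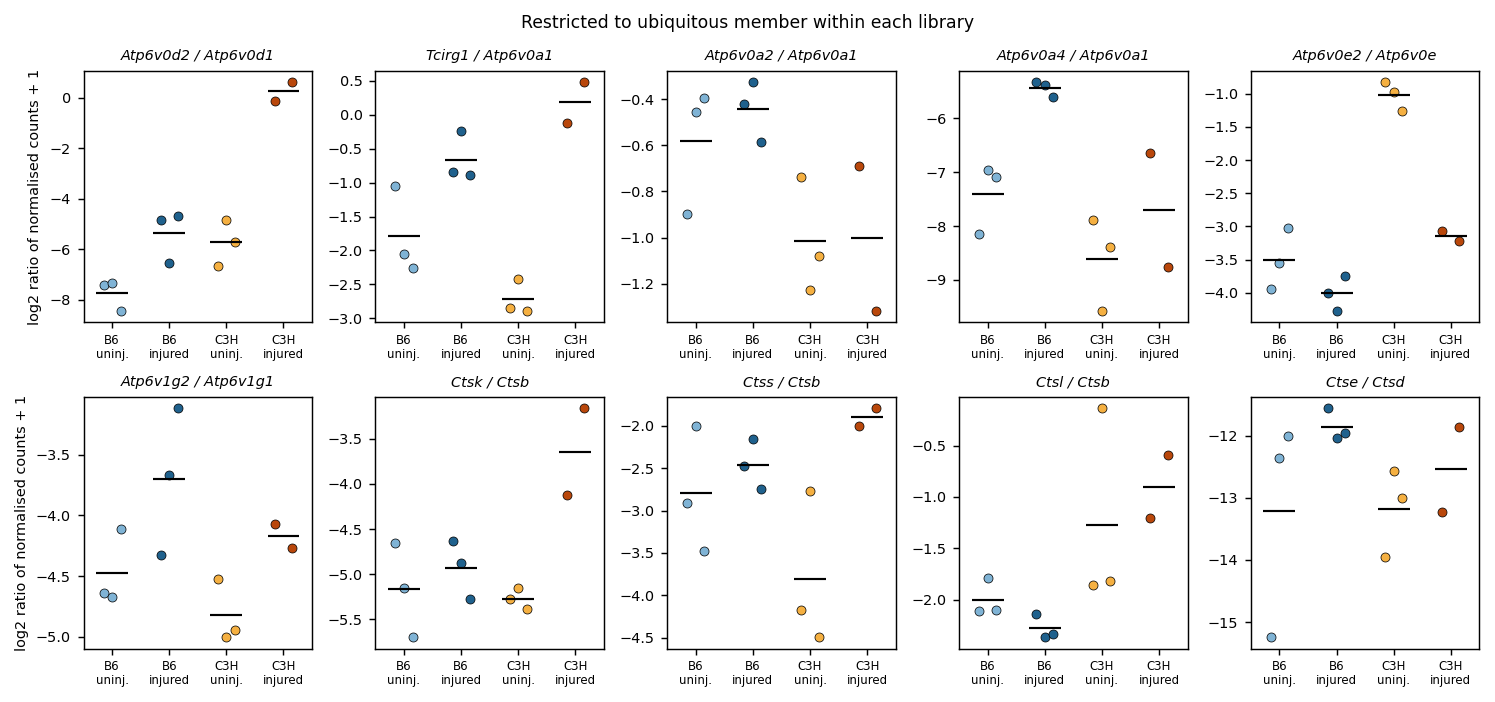
Log2 ratio of the first to the second member (normalised counts + 1, a separate range in each panel) for the 10 pairs in the 11 libraries. The second is a broadly used form, and the first a restricted form except for Ctsl and Atp6v0a2. Points are libraries and lines group means. For Atp6v0d2 to Atp6v0d1 the injured C3H libraries lie at -0.13 and 0.61, and all others at -4.70 or lower.

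Per length of exons, Atp6v0d2 made up 0.133% to 0.366% of the summed d subunit level in uninjured and 0.648% to 2.42% in injured B6 regions. In C3H it made up 0.588% to 2.21% in uninjured regions, and 37.6% and 50.3% in the injured ones. By coding length, an alternative added after the data were seen, the injured C3H values were 47.8% and 60.6%. The cathepsins together took 0.392% to 0.471% of all reads in uninjured and 0.508% to 0.622% in injured B6 regions. They took 0.345% to 0.431% in uninjured C3H regions, and 1.56% and 2.40% in injured ones. The pump genes took 0.125% to 0.163% of reads in the 9 other libraries, and 0.220% and 0.287% in injured C3H. Within the cathepsin reads, Ctsd held 42.3% to 52.9% in the 9 other libraries and 32.7% and 25.3% in injured C3H, where Ctsk held 1.90% and 3.58% and Ctss 8.29% and 9.27%.

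**Figure D4:**
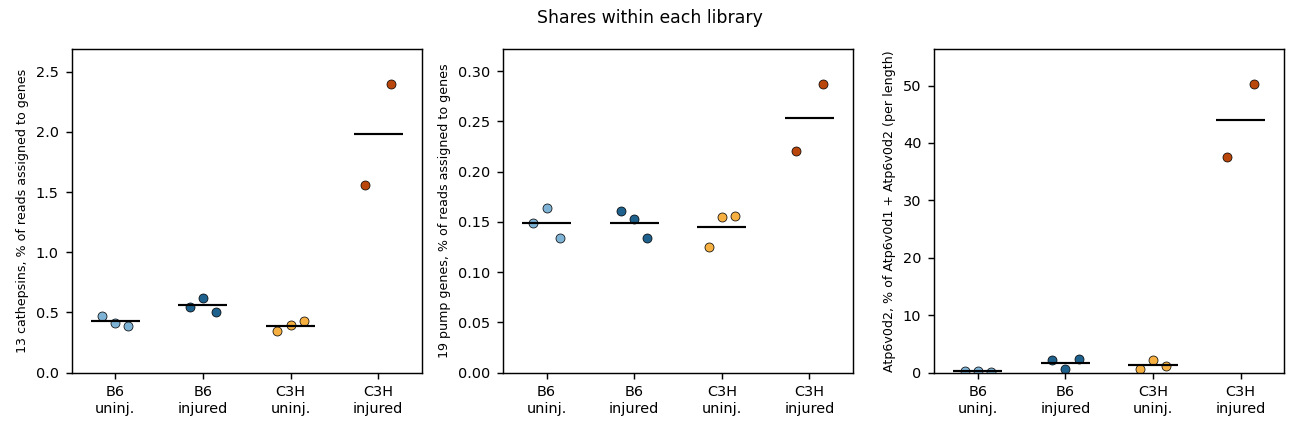
Share of reads assigned to the 13 cathepsins (left) and the 19 pump genes (middle), in % of all reads, and share of Atp6v0d2 in the summed level of Atp6v0d1 and Atp6v0d2 per length, in % (right), by library and group. Points are libraries and lines group means. The injured C3H libraries are the highest in each panel.

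Levels of different members were ordered by normalised count per kilobase of exons. Ctsd was the highest in all 4 groups, at 15635 ± 1256 (SD, n = 3) in uninjured B6, 15913 ± 2229 (SD, n = 3) in injured B6, 15309 ± 3259 (SD, n = 3) in uninjured C3H and 35986 ± 4910 (SD, n = 2) in injured C3H. Ctsb was second except in injured C3H, where Ctss (19643 ± 7575, SD, n = 2) and Ctsb (16117 ± 4706, SD, n = 2) lay within their spread of each other. Ctsk went from rank 17 of 32 in uninjured to rank 5 in injured C3H, and Atp6v0d2 from rank 29 to rank 11. There, Atp6v0d2 (985 ± 537, SD, n = 2) and its neighbour Atp6v0d1 (1176 ± 246, SD, n = 2) did not differ beyond their spread. In uninjured B6 the same forms stood at 2.32 and 790 per kilobase. The lowest members were Atp6v0a4, Ctse, Ctsw and Atp6v1g2 in injured C3H.

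The difference between the strains in the injury effect was itself tested, as C3H minus B6. It was called for 8 members, all with the larger increase in C3H, beside 1.5% of all genes tested in that direction, 0.0678% in the other and 1.57% in either. These were Atp6v1a (2.21, SE 0.30, adjusted p = 0.00516) and the cathepsins Ctss (3.70, SE 0.66, adjusted p = 0.0170), Ctsk (3.51, SE 0.62, adjusted p = 0.0166), Ctsl, Ctsb, Ctsz, Ctsh and Ctsc. Atp6v0d2 had the highest difference, 4.32, but also a wide SE of 1.05 (adjusted p = 0.0671). With the animal as a block it passed (0.0163 fixed, 0.0112 random), as it did with DESeq2 (0.00341), and over the 21 alternatives its adjusted p ran from 0.00341 to 0.444. The fixed block called 12 members and the random block 14, with Atp6ap2, Atp6v0e and Ctsa added in both, and Atp6v1b2 and Ctsd in the random one.

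Whether these differences were called depended on single libraries. The differences themselves stayed positive for all 8 over the 21 alternatives, with lowest values from 1.49 for Ctsc to 3.29 for Ctss. None of the 8 passed without injured C3H library 2 (Atp6v1a then had 1.85, adjusted p = 0.0541). The count was 2 without uninjured B6 library 1, 3 without uninjured B6 library 2, 4, 5 and 3 without injured B6 library 1, 2 and 3, and 3 without uninjured C3H library 3. Without the other 4 libraries it was between 7 and 10. Of the 13 increases within C3H, 10 kept their call without injured C3H library 2, and the exceptions were Atp6ap2, Atp6v0e and Ctsd.

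Between the uninjured regions, C3H differed from B6 in 3 of 32 members, beside 3.1% of all genes tested (1.32% higher and 1.79% lower in C3H). Atp6v0e2 was higher in C3H, at 485, 642 and 675 against 160, 226 and 178 (change 1.67, SE 0.24, adjusted p = 0.00275). Ctsh was lower, at 596, 561 and 389 against 1881, 1584 and 1254 (change -1.61, SE 0.25, adjusted p = 0.00400). Ctsc was lower, at 996, 1087 and 780 against 1836, 2130 and 1604 (change -0.96, SE 0.20, adjusted p = 0.0250), a call lost without uninjured library 1 or 2 of B6 (0.0841, 0.100) or 1 or 3 of C3H (0.0506, 0.105). None of these groups overlapped. In all, 4 members were higher and 4 lower in C3H without overlap, beside 7.63% and 9.27% of all genes tested. Reads were aligned to a B6 genome, so that C3H alleles may be undercounted, and the part of this was not tested.

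Between the injured regions, 11 of 32 members were called higher in C3H and none lower, beside 3.72% and 3.34% of all genes tested, 7.06% in all. Without overlap, 19 were higher and 3 lower, beside 24.9% and 24.2% of all genes tested. They were Atp6v0d2 (6.28, SE 0.78, adjusted p = 0.000859), Atp6v1a, Atp6v1b2 and Atp6v0e2 of the pump, and Ctsl (3.25, SE 0.43, adjusted p = 0.00118), Ctsk, Ctss, Ctsb, Ctsz, Ctsa and Ctsd. Ctsh and Ctsc, which were lower in uninjured C3H, had adjusted p of 0.763 and 0.0995 here. Without injured C3H library 2, 3 of the 11 remained.

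Other lysosomal genes were counted the same way in C3H injury, where 15.3% of all genes tested were called higher and 15.4% lower. Of 38 other hydrolases 31 rose and 1 fell, with a median of 1.62. The largest increases were Acp5, the tartrate-resistant phosphatase of osteoclasts (4.81, SE 0.63, adjusted p = 0.000327), and Napsa, an aspartic protease (3.61, SE 0.64, adjusted p = 0.00186). Of 21 lysosomal membrane and ion transport proteins 10 rose and none fell, with a median of 0.77, led by Laptm5, a lysosomal protein of blood cells (3.37, SE 0.29, adjusted p = 2.64e-05) and the chloride-proton exchanger Clcn5 (2.98, SE 0.95, adjusted p = 0.0319). Of 17 genes of lysosomal enzyme sorting 5 rose, led by Gnptab, which makes the mannose 6-phosphate tag (1.62, SE 0.26, adjusted p = 0.00108), and the receptor M6pr (0.89, SE 0.23, adjusted p = 0.0134).

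Of 19 transcription factors and proteins that dock mTORC1 at the lysosome, 3 rose and 3 fell in C3H, with a median of -0.37, beside 15.3% and 15.4% of all genes tested. Tfec rose by 2.10 (SE 0.39, adjusted p = 0.00224) at low levels, from 14.4 to 63.6, and Fnip2, a partner of folliculin, by 1.80 (SE 0.46, adjusted p = 0.0125). The others were named after their values were seen: Tfe3 rose by 1.00 (SE 0.21, adjusted p = 0.00475), Tfeb fell by 0.65 on the log2 scale (SE 0.22, adjusted p = 0.0393), and the GTPases Rragd and Rragb fell by 1.13 and 1.40 on that scale (adjusted p = 0.00744 and 0.0150). Mitf was 1117, 1390 and 899 in uninjured and 893 and 1442 in injured C3H regions. Of 11 cystatins and related inhibitors of cathepsins, 2 rose: Cstb, which guards the cytosol against leaked cathepsins (2.28, SE 0.38, adjusted p = 0.00125), and Cst7, which went from a mean of 1.71 to 26.0. Cst3, the secreted cystatin C, was 10426 to 23539 in uninjured and 17513 and 17507 in injured C3H regions.

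Markers of cell types changed as well in C3H injury, where 15.3% of all genes tested were called higher and 15.4% lower. Of 20 macrophage markers 18 rose in C3H injury, with a median of 2.79, and their summed level went from 16195 to 28556 in uninjured to 123650 and 240594 in injured regions. In B6 that sum was 28595 to 40531 in uninjured and 48725 to 67139 in injured regions. Lyz2, the most abundant of them, was 6196, 10017 and 6327 in uninjured and 44705 and 75536 in injured C3H regions. Of 12 osteoclast genes tested 7 rose, and the sum of all 15 measured was 4116 to 5544 in uninjured and 11773 and 22349 in injured C3H. Some defining osteoclast genes are given here outside the rule on which genes are named, and the rest of the list by count only. Those given do not stand for the whole list, in which the other tested genes were not all called. Nfatc1 was 573, 500 and 344 in uninjured and 1011 and 1461 in injured C3H. Tnfrsf11a, the RANK receptor, was 123, 102 and 68.4 against 600 and 1345. Dcstamp was called higher (limma adjusted p = 0.00674), from a mean of 0.349 to 27.3. The means in injured C3H were 23.9 for Ocstamp, 7.42 for Calcr and 5.54 for Siglec15. These levels are low, and no change with injury is read from them. Dcstamp, Calcr and Siglec15 were at 0 in all uninjured B6 libraries. Acp5 and Tcirg1 are among both the osteoclast genes and the lysosomal lists.

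Fibroblast markers rose in 7 of 10 cases, summing to 49972 to 264580 in uninjured and 542657 and 749236 in injured C3H. The tissue label held, with Myh6, the cardiac myosin, at a mean of 455301 in uninjured C3H. Cardiomyocyte markers fell in 9 of 11 cases, from sums of 1913367 to 2469217 to 606640 and 708839 in injured C3H. In B6 these sums were 1863541 to 2329606 in uninjured and 1144806 to 1477449 in injured regions, with no marker called. Of the other markers in C3H, 0 of 7 of neutrophils, 0 of 5 of mast cells and 0 of 10 of T and NK cells were called. The counts below stand beside 15.3% higher and 15.4% lower of all genes tested, and are near these shares. Of dendritic and B cell markers 2 of 9 rose (Itgax and Flt3), of endothelium 2 of 8 fell (Emcn and Egfl7). Of epithelium 1 of 6 rose (Cdh1). These 5 genes were named after their values were seen. At an unadjusted p under 0.05 in limma, the counts that were 0 stayed 0 for neutrophils and mast cells and became 1 for T and NK cells. DESeq2 also called 1 of the T and NK markers and edgeR 0, and both called 0 for neutrophils and mast cells. The part of a changed mix of cells in the levels of pump genes and cathepsins was not tested.

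**Figure D5:**
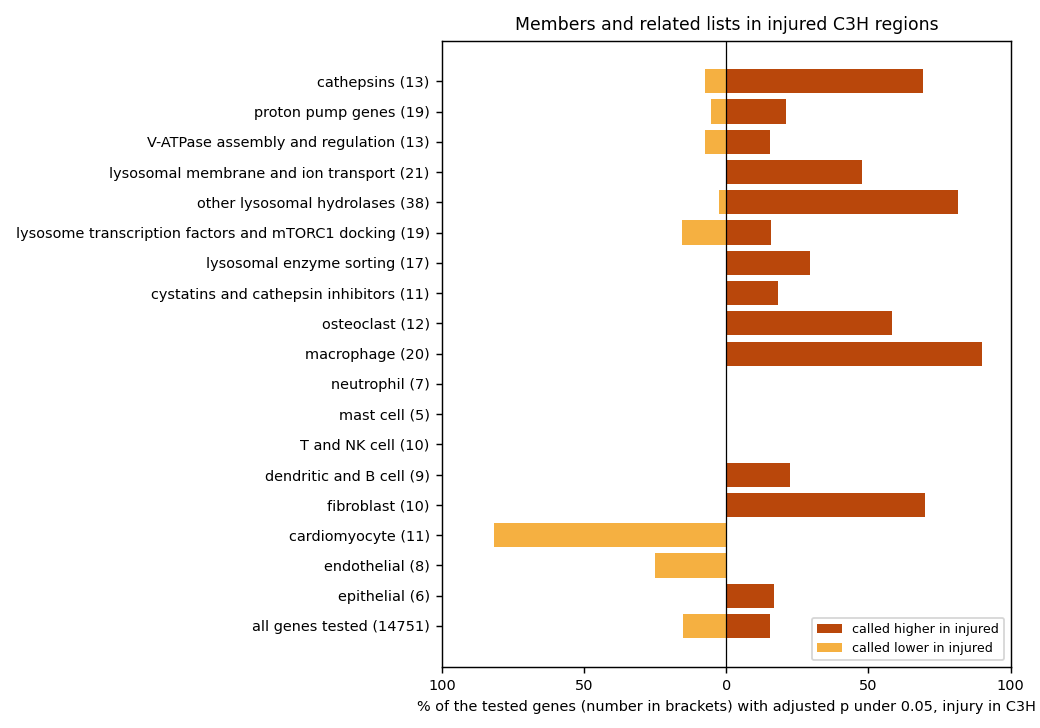
Share of tested genes with an adjusted p under 0.05 for injury in C3H, in %, for the cathepsins, the pump genes, 6 pathway lists, 10 lists of cell markers and all genes tested. Bars to the right are genes higher and bars to the left genes lower in injured regions, and the number of genes is in brackets. The bars to the right stand for 18 of 20 macrophage markers, 31 of 38 other hydrolases, 7 of 10 fibroblast markers and 9 of 13 cathepsins.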

How the data were processed

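The RNA came from column extraction and standard Illumina libraries, per the labels. TopHat2 2.0.11, HTSeq 0.6.1 and DESeq are the tools of the authors and mm9 is their build, per the submitters' processing notes. The notes name no annotation, strand setting or filter. Each library's deposited signal is its reads per gene over 1 size factor: every value was a whole multiple of 1 step (100%, tolerance 1e-06), which gave the reads, 9699985 to 22138459 per library. Build mm9 is of B6.

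Members and lists were chosen with earlier results of these data known, as was the rule on which genes are named: every member, with library values for those called in C3H or for the interaction and for isoform pairs, the 2 largest called changes of each pathway list in C3H and the most abundant gene of each marker list. The last part of that rule was not kept for every marker list. No gene is named for the fibroblast, neutrophil, mast cell, and T and NK lists. For the dendritic and B cell, endothelial and epithelial lists the called genes are named. Of 233 list symbols 220 were found. The files hold a normalised signal, not counts, so that a model of 4 group means over 11 libraries was fitted with limma 3.58.1 under R 4.3.3, with trended empirical Bayes, to log2(signal + 1) for genes at 10 or more in at least 2 libraries, with Benjamini-Hochberg adjustment and a threshold of 0.05, two-sided. The fit was run on simulated data with the same dispersion for every gene and no effect of the mouse. Regions are paired by mouse in these data, so the simulation does not give the error rate here. On this scale fold changes of low genes are understated. Isoform ratios had exact permutation tests.

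Same-numbered regions are of the same mouse, per the labels. The correlation of their residuals was 0.276, -0.0140 and 0.524 for the B6 mice, and 0.305 and 0.575 for the C3H mice. Animal blocks (fixed, and random with a correlation of 0.392), edgeR 4.0.16 and DESeq2 1.42.0 on the recovered reads, other pseudocounts, filters and scalings, and leaving out each library were alternatives. Each mouse gave at most 1 library per region. The main fit has no term for the animal. Its p-values therefore measure against the spread between mice within the 4 groups, pooled, and leave the pairing of regions unused. Only the animal blocks take the pairing into account. Gene lengths are exon unions of GENCODE vM21 (all 32 members), promoters are those of RefSeq. No gene coordinates in mm9 are given.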

Additional observations from a re-analysis of the deposited data

Results flagged for a closer look

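The injury effect differed between the strains, by the interaction term in limma, for 8 of the 32 members, beside 1.57% of all genes tested. It was in each case more positive in C3H than in B6, as for 1.5% of all genes tested. The differences were 3.70 for Ctss, 3.51 for Ctsk, 2.77 for Ctsl, 2.21 for Atp6v1a, 2.12 for Ctsb, 2.06 for Ctsz, 1.77 for Ctsh and 1.63 for Ctsc, all in log2 units. Ctsh and Ctsc were lower in uninjured C3H than in uninjured B6, by changes of -1.61 and -0.96. Between injured regions their changes were 0.16 and 0.66, and neither was called. In the injured C3H regions, where the macrophage markers summed to 123650 and 240594, library 2 had the higher level of all 8 genes. The part of the macrophage content in these differences was not tested.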

How the results depend on the processing

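In C3H injury, 15 members were called and 10 to 17 when 1 library was left out, or 13 to 21 under the 11 other settings. For the interaction, 8 were called, 14 with animal as a random replicate block and 12 with a fixed one, and 0 to 10 with 1 library left out. C3H minus B6 in injured regions gave 11, and 3 to 13 with 1 library left out, where injured C3H library 2 gave the 3. The isoform ratios gave 3 pairs, 0 when labels were swapped within animals as the replicate block, where the smallest exact permutation p of 32 arrangements is 0.0625, and 0 to 3 with 1 library left out, where fewer arrangements raise the smallest p. The ratio of Atp6v0a2 to Atp6v0a1 (0.07) changed sign to -0.003408 without uninjured B6 library 1, and ran from -0.0819 to 0.232 with 1 library left out (the lowest and highest without injured C3H library 1 and 2). The ratio of Ctsl to Ctsb (0.05) changed sign to -0.127 with the block, and to -0.101, -0.0899 and -0.107 without uninjured C3H library 1, uninjured C3H library 3 and injured C3H library 2, and was 0.329 without uninjured C3H library 2. For all of these the cause was not tested, other than the number of arrangements. B6 injury gave 0 members and uninjured regions 2 to 4 under every setting. In B6 injury, DESeq2 gave many members no adjusted p and could not have called them. The block changed no other call than those named beside the results. Left out with 1 sample remaining, the injured C3H arm is assumed to vary like the others. Injured C3H has 2 libraries, which limits the precision of each comparison that uses it.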
